A study of Mus musculus with 12 samples.

Results

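IGHA and IGHG2B, the constant genes of IgA and IgG2b heavy chains, were the 2 constant genes named first in the heavy chain clone tables of mouse VQ myeloma lines, 2 of 2 in all. Their transcripts were examined in the aligned rows of the 6 heavy chain libraries, where 1 row stands for 1 consensus sequence of a molecular identifier group. Rows were split by the length of their V segment alignment, so that 53453 of 60891 rows had at least 50 aligned V bases (rows with V) and 7438 had fewer or none (rows without V). The members and this split were chosen from measured values, and the lines 4935 and 4938 were singled out because most of their rows lacked a V. The share of rows without V is therefore given as a description.

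The study sequenced B cell receptor transcripts from bone marrow MM cells sorted as CD138+B220-. Every line carries the genotype Vκ*MYC; NrasLSL Q61R/+; IgG1-Cre, called VQ, in which a MYC transgene is under Vκ control, an Nras allele turns on after recombination of a stop cassette, and Cre comes with IgG1 expression. The primary donor lines are 4, namely VQ-D5, VQ-D4, VQ-D2 and VQ-D1, and 4935 and 4938 are 2 cell lines that arose from recipients of VQ-D2, so 3 of the 6 lines go back to 1 donor line. The sources used here give no ages, and each line has 1 heavy chain library, so that intervals (95%, exact Clopper-Pearson) cover counting error only and p-values over lines measure only the spread between these libraries.

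A heavy chain message is spliced from a joined V-D-J exon to the first constant exon, CH1. During class switching, B cells also make noncoding transcripts from a promoter before each switch region, whose I exon is spliced to the constant exons. The I exon of the mu locus, Iμ, lies before the mu switch region and stays upstream after a switch, so it can be spliced to the CH1 of the new class, whereas the I exon of IgA or IgG2b itself is found in transcripts made before that switch. A J segment that has not been joined keeps its germline flank with the recombination signal, and a joint to an upstream J leaves the J segments downstream of it in this state.

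The stretches on which all counts rest were read from the deposited rows with V, as the bases after the end of the J segment. They are shown because they define what was called constant sequence, and capitals mark the bases of IGHA that also occur joined to other RNAs (the primer part). The tail follows CH1 in both classes and is not part of either gene, and the adapter is the template-switch sequence at the other end of the complementary DNA.

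IGHA: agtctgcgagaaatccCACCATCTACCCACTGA

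IGHG2B: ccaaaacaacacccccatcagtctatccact

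shared tail: aatcagggctgcccaat

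adapter: cagtggtatcaacgcagagt

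In the RefSeq table of GRCm38.p6, Igha spans 113256204 to 113260236 and Ighg2b 113304314 to 113307933 on chromosome 12. Ighm, whose upstream region holds Iμ, spans 113418826 to 113422730, and the J segments used below lie between 113428514 (start of Ighj4) and 113429833 (end of Ighj1) on the same chromosome. The 33 IGHA bases and 31 IGHG2B bases lie at the 5′ end of CH1 and are coding exon sequence.

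IGHG2B was found in VQ-D1 only, and IGHA in the 5 other lines only. In the clone tables, VQ-D1 had 4602 counts, all IGHG2B, in 2 clonotypes. The IGHA counts were 2568 in VQ-D2, 1277 in VQ-D4, 2181 in VQ-D5, 411 in 4935 and 373 in 4938. The aligned rows showed the same division in both classes. With a run of 20 exact bases as a match, VQ-D1 had IGHG2B in 4508 rows with V and 4178 rows without V, and IGHA in 0 rows of either class, which allows up to 0.0759% and 0.085%. No row of the 5 other lines held an IGHG2B run, so where a row without V held a constant run, it was that of the gene of the line's clone. In the IGHA lines such a run was in 20.8% (VQ-D5) to 69.9% (4938) of rows without V. In VQ-D4, 22 of the 35 rows with it were kappa RNA joined to the primer part, as given below.

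Rows without V made up 47.2% of VQ-D1 (4339 of 9195 rows, 46.2% to 48.2%), 4.76% of VQ-D2 (1296 of 27215, 4.51% to 5.02%), 19% of VQ-D4 (65 of 342, 15% to 23.6%) and 3.05% of VQ-D5 (702 of 23019, 2.83% to 3.28%). They made up 95.9% of 4935 (282 of 294, 93% to 97.9%) and 91.3% of 4938 (754 of 826, 89.1% to 93.1%). Both derived lines were high, VQ-D1 stood between them and the other primary lines, and VQ-D2, the donor of the derived lines, was among the lowest. Those 2 libraries were also among the smallest, and the part of library size in the share was not tested. Just below the limit of 50 bases lay 301 rows with 40 to 49 V bases, and just above it 120 rows with 50 to 59.

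Most rows without V nevertheless carried a short alignment to a V gene, and these alignments were mostly no better than random matches by their own E-value. Of the 7438 rows, 919 had no V alignment and 6519 had a short one, of which 5137 had an E-value above 1. The median E-value of the short alignments was 3.16 in VQ-D4, 4.63 in VQ-D2, 4.64 in VQ-D5 and 4.74 in VQ-D1, against 1.37 in 4935 and 2.13 in 4938.

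What stood directly before the constant exon separated the rows without V into 7 structures, which together hold every one of these rows. A complete J has at least 40 bases of a germline J ending at CH1, and a shortened J has 6 to 39. These bases were counted back from CH1 to the first mismatch, so a longer J with a mismatch near CH1 also counts as shortened. The other structures were Iμ before CH1, another sequence before CH1, a CH1 that begins inside its first bases, the primer part of CH1 alone, and no CH1 run.

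**Figure D1:**
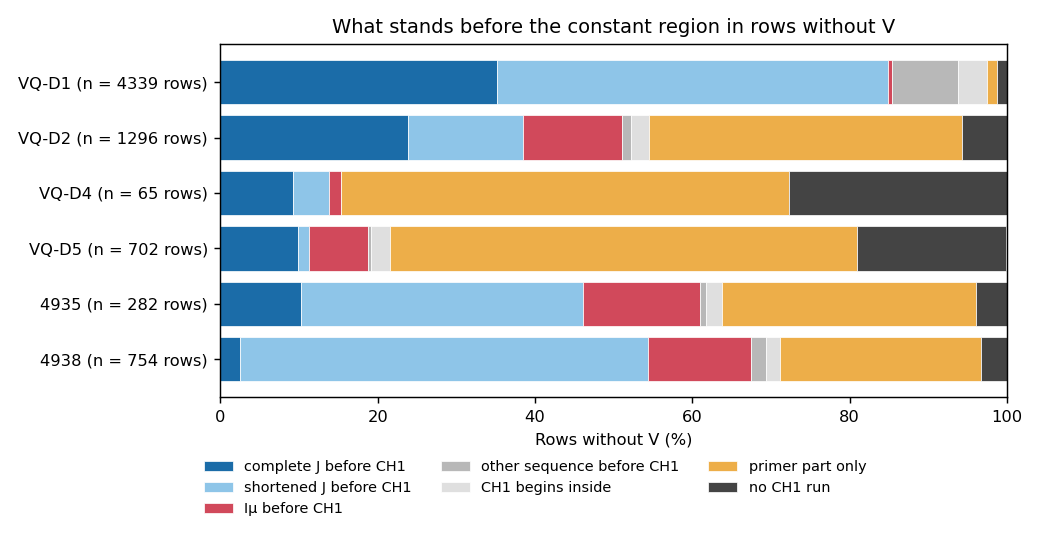
Share of rows without V (%, horizontal axis) in each of 7 structures for the 6 lines, with the number of rows beside each line. J before CH1 fills most of VQ-D1, 4935 and 4938 hold mainly shortened J, Iμ and primer part, and the primer part alone is the largest class in VQ-D2, VQ-D4 and VQ-D5.

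In VQ-D1, 1528 rows had a complete J (35.2%, 33.8% to 36.7%) and 2155 a shortened J (49.7%, 48.2% to 51.2%). VQ-D2 had 310 with a complete J (23.9%) and 189 with a shortened J (14.6%), VQ-D4 had 6 (9.23%) and 3 (4.62%), and VQ-D5 had 69 (9.83%) and 10 (1.42%). In 4935 the numbers were 29 (10.3%) and 101 (35.8%, 30.2% to 41.7%), and in 4938 they were 19 (2.52%) and 391 (51.9%, 48.2% to 55.5%). A J spliced to CH1, which a transcript from a switch promoter does not have, was thus present in most rows without V of VQ-D1 and 4938 and in few of VQ-D4 and VQ-D5. Among rows with V, a complete J stood before CH1 in 84.6% of VQ-D1, 40.7% of VQ-D2, 10.8% of VQ-D4, 17.4% of VQ-D5, 83.3% of 4935 and 86.1% of 4938. A shortened J was not limited to rows without V. VQ-D5 had it in 5805 rows with V (26%), far above its 1.42% without V. Whether these 5805 rows hold a cut J or a longer J with a mismatch was not tested. Every other line had a lower share with V than without: 8.11% (VQ-D1), 5.63% (VQ-D2), 0.722% (VQ-D4), 8.33% (4935, 1 row) and 11.1% (4938, 8 rows).

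Iμ, the exon of the mu switch promoter, was spliced to CH1 in rows without V of every line and in 0 rows with V of any line. The Iμ bases searched for were chosen in rows without V, as the commonest non-J bases before CH1 seen with both genes. Their absence from rows with V is therefore partly built into that choice. The 2 forms below carry the Iμ rows. Both were read from VQ-D2 rows, where they end at CH1, as the consensus of rows with a T and of rows with a C 2 bases before CH1. Capitals mark the 3 bases at which they differ. The name rests on knowledge of the mouse Iμ sequence, since no reference for it was used here.

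Iμ, first form: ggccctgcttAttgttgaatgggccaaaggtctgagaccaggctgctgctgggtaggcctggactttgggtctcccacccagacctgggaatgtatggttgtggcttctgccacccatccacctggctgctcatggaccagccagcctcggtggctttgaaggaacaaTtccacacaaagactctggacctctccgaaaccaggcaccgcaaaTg

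Iμ, second form: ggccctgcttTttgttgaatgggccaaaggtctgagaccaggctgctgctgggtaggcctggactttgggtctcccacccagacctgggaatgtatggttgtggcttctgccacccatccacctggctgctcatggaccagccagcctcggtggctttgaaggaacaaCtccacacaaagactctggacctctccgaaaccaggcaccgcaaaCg

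With position 1 at the 5′ end of the printed stretch, the second form differs from the first by A11T, T169C and T214C. The last of these lies 2 bases before CH1.

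Iμ rows numbered 162 in VQ-D2 (12.5% of rows without V, 10.7% to 14.4%), 42 in 4935 (14.9%, 10.9% to 19.6%) and 99 in 4938 (13.1%, 10.8% to 15.8%). There were 53 in VQ-D5 (7.55%, 5.71% to 9.76%), 22 in VQ-D1 (0.507%, 0.318% to 0.767%) and 1 in VQ-D4 (1.54%, 0.0389% to 8.28%). The 3 lines of the VQ-D2 family were the highest, with overlapping intervals, and VQ-D1 was the lowest. In VQ-D1 all 22 were joined to IGHG2B, and in the 5 other lines each was joined to IGHA. Iμ joined to CH1 of the switched class is the structure known for transcripts made after a switch. The median number of bases before CH1 was 251 in VQ-D1, 268 in VQ-D2 and 4938, 287 in VQ-D5 and 278.5 in 4935.

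The base of Iμ that lies 2 bases before CH1 varied among the rows of the VQ-D2 family and hardly at all in VQ-D5. The forms were defined by this base in VQ-D2, and positions that vary only in other lines were not looked for. At the position 2 bases before CH1, VQ-D2 had the T of the first form in 73 rows, the C of the second in 73, an A in 13 and a G in 3. Line 4935 had 25, 13, 4 and 0 rows with these bases, and 4938 had 53, 29, 16 and 1. VQ-D5 had the T in 52 of 53 rows, and VQ-D1 in 22 of 22. Both forms were thus present in the donor line and in both lines derived from it, and the C at this position, T214C, was in 0 rows of VQ-D1, VQ-D4 and VQ-D5. VQ-D1 was not uniform elsewhere: 4 of its 22 rows had the C of T169C beside the T, and of the 12 rows covering all 3 differences 5 were the first form and 7 neither.

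In the VQ-D2 family, the differences at T169C and T214C mostly went together. In VQ-D2 this follows in part from how the forms were read, since T169C was found by splitting its rows at T214C. In VQ-D2, 67 rows had the base of the first form at both positions and 71 that of the second at both, against 6 with 1 of each, among 161 rows covering both. In 4935 the numbers were 23 and 11 against 3 among 42 rows, and in 4938 they were 52 and 27 against 3 among 99. An A at the last position stood with the T of the first form at the other in 13 rows of VQ-D2, 4 of 4935 and 12 of 4938, and with the C in 4 rows of 4938. In VQ-D1 no row had the second form at both, and in VQ-D5 1 of 53 had the C of T169C alone. Of the rows covering all 3 differences, 40 of 122 in VQ-D2 were the first form exactly, 41 the second and 41 neither. In 4938 those numbers were 27, 10 and 37 of 74 rows, and in VQ-D5 they were 45, 0 and 6 of 51. Whether the forms are alleles, copies on different chromosomes or mutated copies was not tested.

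**Figure D2:**
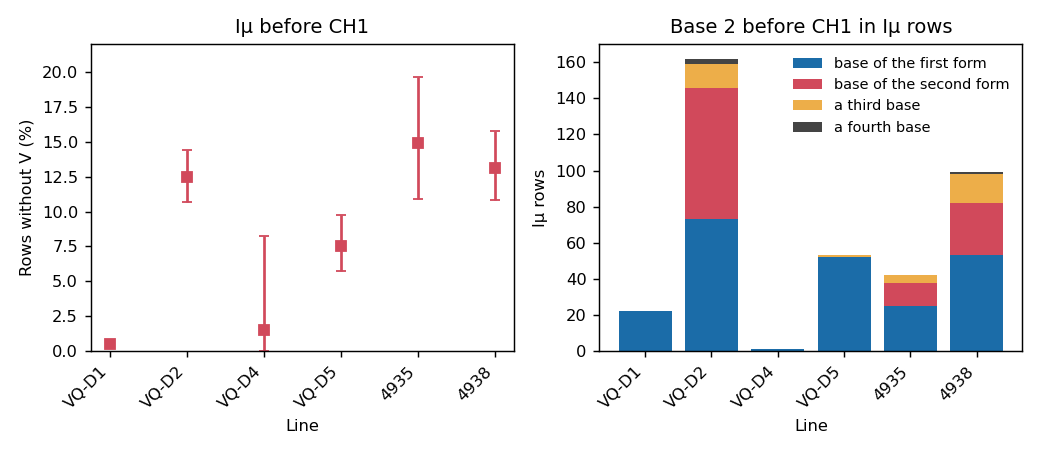
Left, share of rows without V (%) with Iμ before CH1 by line, with 95% exact intervals; right, number of these rows by the base that lies 2 bases before CH1. VQ-D2, 4935 and 4938 lie at 12.5% to 14.9% and hold the bases of both forms, whereas VQ-D5 holds that of the first form in 52 of 53 rows.

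The I exons of IGHA and IGHG2B themselves, which mark transcripts made before a switch, had no sequence to match here. Their rows would fall among those with another sequence directly before CH1. That class held 366 rows in VQ-D1 (8.44%), 14 in 4938 (1.86%), 15 in VQ-D2 (1.16%), 2 in 4935 (0.709%), 2 in VQ-D5 (0.285%) and 0 in VQ-D4. In VQ-D1, 241 of the 366 held an inverted repeat, and their median length was 112 bases. These counts include anything else of unknown origin before CH1 and so are upper bounds for rows with an intact splice to those exons.

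Another small set came from J segments that had not been joined. The flanks below run from unjoined germline sequence into J, and capitals mark the J bases as read from the alignments. By their RefSeq spans, IGHJ4 and IGHJ2 begin a few bases before the capitals, so the last lower-case bases there belong to J.

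unjoined IGHJ4: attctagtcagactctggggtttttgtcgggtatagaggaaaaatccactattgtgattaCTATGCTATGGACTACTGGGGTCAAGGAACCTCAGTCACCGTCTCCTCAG

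unjoined IGHJ3: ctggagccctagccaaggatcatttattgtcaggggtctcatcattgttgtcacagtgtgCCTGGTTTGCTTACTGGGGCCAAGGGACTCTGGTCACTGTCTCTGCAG

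unjoined IGHJ2: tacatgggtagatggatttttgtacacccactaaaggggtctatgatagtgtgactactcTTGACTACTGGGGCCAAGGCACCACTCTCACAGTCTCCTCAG

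Such rows numbered 20 in VQ-D1 (9 IGHJ3 and 11 IGHJ4), 7 in VQ-D2 (5 IGHJ2 and 2 IGHJ4), 21 in VQ-D5 (3 IGHJ2, 6 IGHJ3 and 12 IGHJ4) and 1 in 4935 (IGHJ3), and all had the J spliced to CH1. There were 0 in VQ-D4 and 4938 and 0 among rows with V in every line. The flanks were themselves chosen from rows without V, which favours their absence from rows with V. In every one of these lines the unjoined J lies downstream of the J of the line's own clone, which is IGHJ2 in VQ-D1, and IGHJ1 in VQ-D5, VQ-D2 and the derived lines. No flank of IGHJ1 was searched for, so in lines with an IGHJ1 clone any flank found had to lie downstream. In VQ-D1 a flank of IGHJ2 could have been found, and it was in 0 rows.

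The VQ-D2 family also shared a segment of unknown origin joined to a complete IGHJ4, shown in capitals. It was read from 77 rows without V of the 3 lines, so its absence from other lines and from rows with V is partly built in.

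IGHJ4 segment: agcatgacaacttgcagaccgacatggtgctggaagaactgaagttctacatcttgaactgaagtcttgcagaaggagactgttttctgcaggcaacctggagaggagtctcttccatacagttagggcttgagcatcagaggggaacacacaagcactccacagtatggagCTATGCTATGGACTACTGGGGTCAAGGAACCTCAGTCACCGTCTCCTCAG

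The segment was in 67 rows without V of VQ-D2 (5.17%, 4.03% to 6.52%), in 17 of 4935 (6.03%, 3.55% to 9.48%) and in 12 of 4938 (1.59%, 0.825% to 2.76%). It was in 0 rows without V of VQ-D1, VQ-D4 and VQ-D5, and in 1 row with V of VQ-D2. Directly joined to a complete J it made up 53 of the 310 rows with complete J of VQ-D2, 14 of 29 in 4935 and 11 of 19 in 4938. A joint with IGHJ4 beside a clone on IGHJ1 was thus found in the donor line and in both derived lines. Which gene the segment belongs to was not settled.

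Apart from rows with an unjoined flank or with this segment, the clone's CDR3 was present in 519 of the 1508 complete J rows of VQ-D1, 223 of 250 in VQ-D2, 4 of 6 in VQ-D4, 36 of 48 in VQ-D5, 0 of 14 in 4935 and 2 of 8 in 4938. The part of the clone's own joint that was kept was counted as the bases before CH1 that match the clone without a break, over all rows with a J before CH1, those with an unjoined flank or the segment included. The rows kept a median of 33 bases of the clone before CH1 in VQ-D1 (quartiles 27 and 54, 3683 rows), 35 in VQ-D2 (16 and 103, 499 rows), 53 in VQ-D4 (9 rows) and 64 in VQ-D5 (16 and 89, 79 rows). In 4935 the median was 15 (both quartiles 15, 130 rows), and in 4938 it was 15 (15 and 16, 410 rows). The start of the CDR3 core was reached by 44.4% of these rows in VQ-D4 (4 of 9), 44.3% in VQ-D5, 43.1% in VQ-D2, 13.9% in VQ-D1, 0.488% in 4938 (2 rows) and 0% in 4935. The derived lines kept the least of the joint by both measures.

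In the derived lines the J segments were shortened mainly at 1 or 2 points. In 4935, 97 of 101 shortened J rows had exactly 15 J bases, and 95 of these had the same join. In 4938, 290 of 391 had 15 bases, 268 of them with that join, and 67 had 29 bases. VQ-D2 had 73 of 189 at 15 bases, 66 with the join, and 47 at 29, and VQ-D5 had 3 of 10 at 15, all with the join. VQ-D1, whose clone uses another J, had shortened rows over the whole range, of which the commonest ended at 29 bases (351 of 2155 rows, 303 with 1 join), 31 bases (312 rows) and 33 bases (235 rows). The joins are shown because they repeat across rows that carry different identifiers, with the J in capitals.

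IGHA join: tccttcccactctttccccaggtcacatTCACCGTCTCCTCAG

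IGHG2B join: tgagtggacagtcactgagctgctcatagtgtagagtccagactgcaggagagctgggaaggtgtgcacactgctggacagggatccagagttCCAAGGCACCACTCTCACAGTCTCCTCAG

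Read on the opposite strand, the lower-case bases of each join are sequence from further inside CH1 of IGHA and of an IgG gene, recognised from knowledge of these genes and not matched to a reference. In these rows the strand thus turned over between CH1 and J, and the V, D and upstream J bases were missing. A run of the first CH1 bases on the opposite strand lay before the shortened J in 1225 of the 2155 rows of VQ-D1 (56.8%), 113 of 189 in VQ-D2 (59.8%), 1 of 3 in VQ-D4, 2 of 10 in VQ-D5, 17 of 101 in 4935 (16.8%) and 121 of 391 in 4938 (30.9%). A strand turn was not limited to rows without V. Among rows with V, CH1 lay opposite to V in 11842 rows of VQ-D2 (151 on the same strand) and 7573 of VQ-D5 (1789). The numbers were 1551 in VQ-D1 (2566 on the same strand), 6 in VQ-D4 (3), 7 in 4938 (25) and 0 in 4935 (8). Rows with CH1 on both strands are left out of these counts, and the cause was not tested. The join of IGHA was present in 3 lines of 1 donor and, outside them, in 3 rows of VQ-D5, whose clone also uses IGHJ1. Whether those 3 rows arose from the RNA of VQ-D5 itself was not tested.

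**Figure D3:**
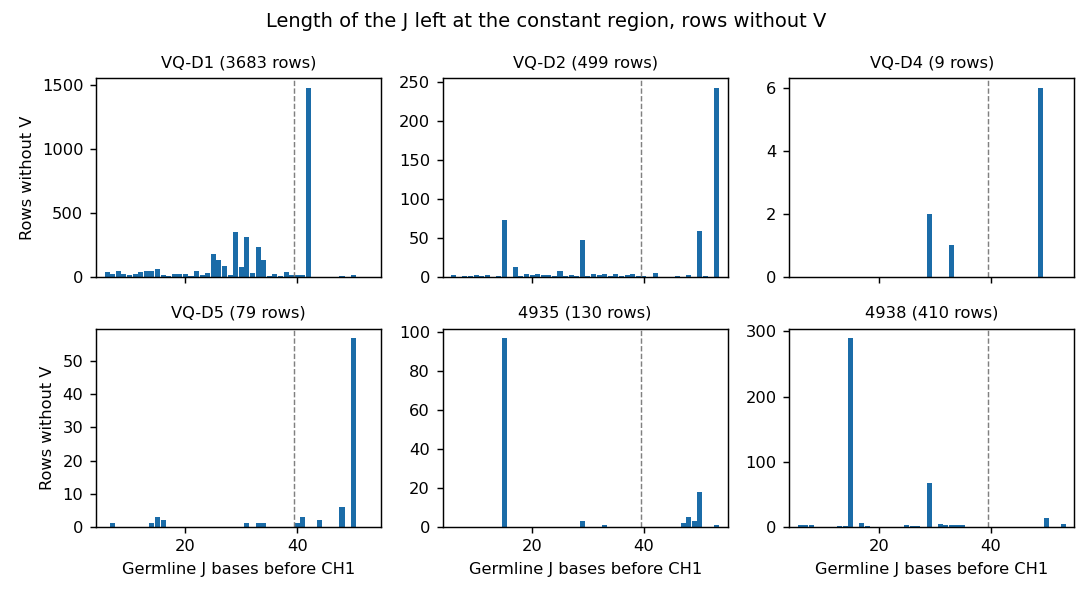
Number of rows without V (vertical axis) by the number of germline J bases that end at CH1 (horizontal axis), 1 panel per line; the dashed line separates shortened from complete J. The 15-base point holds 97 rows in 4935 and 290 in 4938, and VQ-D1 has its shortened rows mainly between 25 and 34 bases.

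A further set of rows held only the end of the CH1 stretch, with a match that began at CH1 base 13 or later. Many of these were RNA of other genes joined to the primer part of IGHA. These rows numbered 418 in VQ-D5 (59.5% of rows without V), 37 in VQ-D4 (56.9%), 514 in VQ-D2 (39.7%), 91 in 4935 (32.3%), 193 in 4938 (25.6%) and 60 in VQ-D1 (1.38%). VQ-D1, the IGHG2B line, had the lowest share. The match most often began at CH1 base 17, in 89.5% of these rows of VQ-D5, 79.1% of 4935, 72.4% of VQ-D2 and 61.7% of 4938. In VQ-D4 it began most often at base 14 (25 of 37 rows) and in VQ-D1 at base 15 (21 of 60). Among rows with V the same structure was in 36.9% of VQ-D2 (9555 rows), close to its share without V. It was in 0.535% of rows with V of VQ-D1, 0.361% of VQ-D4, 0.166% of VQ-D5, 1.39% of 4938 (1 row) and 0% of 4935. What the primer part was joined to was counted in rows without V only. The joins with the named RNAs follow, with the CH1 bases in capitals.

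18S ribosomal RNA: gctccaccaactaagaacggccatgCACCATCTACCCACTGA

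mt-Atp6: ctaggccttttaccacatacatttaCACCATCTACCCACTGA

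IGKC: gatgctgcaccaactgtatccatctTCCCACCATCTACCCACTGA

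Sfr1: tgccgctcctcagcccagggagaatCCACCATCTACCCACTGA

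end of a template-switch sequence, then IGHA CH1 on the opposite strand: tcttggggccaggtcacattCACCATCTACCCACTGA

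unnamed: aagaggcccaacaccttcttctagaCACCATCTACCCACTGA

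Ribosomal 18S RNA, part of the small ribosomal subunit, was in 57 rows of 4935 (20.2%, 15.7% to 25.4%) and 81 of 4938 (10.7%, 8.62% to 13.2%). It was in 22 rows of VQ-D2 (1.7%), 2 of VQ-D4 (3.08%, 0.375% to 10.7%), 21 of VQ-D5 (2.99%) and 0 of VQ-D1. The shares of both derived lines lay above those of every primary line. Their intervals did not overlap those of VQ-D2 and VQ-D5, but the interval of VQ-D4 overlapped that of 4938. These intervals cover counting error within 1 library per line, and derived lines were not tested against primary lines here. The mitochondrial gene mt-Atp6, a subunit of ATP synthase, was in 290 rows of VQ-D5 (41.3%, 37.6% to 45.1%), 36 of VQ-D2 (2.78%), and 2 each of VQ-D4, 4935 and 4938. VQ-D5 alone had a high share of it, and 81 of the rows without V of that line were copies of 1 sequence.

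IGKC, the kappa light chain constant gene, was in 22 rows of VQ-D4 (33.8%, 22.6% to 46.6%), 9 of VQ-D5 (1.28%) and 1 of VQ-D2. Their own bases before the join equal those of IGHA for 3 further positions, so they counted as constant sequence at a run of 20 bases, and 22 of the 35 IGHA rows without V of VQ-D4 were kappa RNA joined to the primer part. Sfr1, which acts in recombination repair, was in 44 rows of 4938 (5.84%), 7 of 4935 (2.48%), and 1 each of VQ-D2 and VQ-D5, and 6 of the 7 in 4935 matched its RefSeq promoter entry over 25 bases. The join that ends in opposite-strand IGHA CH1 was in 39 rows of VQ-D2 (3.01%). In its printed stretch only the lower-case bases nearest the capitals recur in the IGHA join above, and the first ones do not. There were rows of the unnamed sequence in 4938 (10, 1.33%), VQ-D2 (6), VQ-D5 (3) and 4935 (2). The adapter alone stood before the primer part in 295 rows of VQ-D2 (22.8%), 50 of VQ-D5 (7.12%), 8 of VQ-D4 (12.3%), 14 of 4935 (4.96%), 8 of 4938 and 12 of VQ-D1. Names of 18S, mt-Atp6 and IGKC rest on knowledge of these sequences and were not matched to a reference.

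Mixing between libraries was looked for through the 6 bases after the shared tail, which were mostly the same within a library. They could be read in 6044 of 9195 rows of VQ-D1, 208 of 294 of 4935 and 629 of 826 of 4938, but only in 1405 of 27215 of VQ-D2, 842 of 23019 of VQ-D5 and 22 of 342 of VQ-D4. Of these, 92.1% to 100% had their own library's bases, and 0 had those of another of the 6 libraries. The count cannot show an exchange of RNA that took place before these bases were added. It would also be 0 if the rows had been sorted into libraries by these bases, which was not tested.

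Constant sequence was found in both classes of every line. VQ-D1 had it in 92.8% of rows with V and 96.3% of rows without V, VQ-D2 in 47.7% and 53.4%, VQ-D4 in 11.9% and 53.8%, and VQ-D5 in 43.5% and 20.8%. The shares were 91.7% and 62.8% in 4935 and 94.4% and 69.9% in 4938. The 53.8% of VQ-D4 rests on 35 rows, 25 of them with the primer part alone, 22 of which were IGKC. It was higher in rows with V in 3 of 6 lines, and the mean was 63.7% ± 34.4 (SD, n = 6 lines) against 59.5% ± 24.7, a difference of 4.19 percentage points that did not pass an exact sign-flip permutation test (two-sided p = 0.688, adjusted p = 0.688 over 5 tests). Leaving out 4935 or averaging the VQ-D2 family as 1 clone turned this difference to -0.758 and -1.68. With rows of the primer part alone not counted, VQ-D4 fell to 15.4% of rows without V (10 of 65) and the difference became 11.1 points (exact sign-flip permutation p = 0.25), and between derived and primary lines the difference given below went from 10.2 to 20.3 points (p = 0.533).

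J sequence was the more common in rows with V in 5 of 6 lines. VQ-D1 had it in 96.9% of rows with V and 78.1% of rows without V, VQ-D2 in 46.5% and 31.7%, VQ-D4 in 13% and 13.8%, and VQ-D5 in 43.4% and 11.4%. In 4935 it was in 91.7% and 11.7%, and in 4938 in 97.2% and 14.5%. The derived lines thus had the widest gap, and VQ-D4 had none. The mean was 64.8% ± 35.4 against 26.9% ± 26.2 (SD, n = 6), and the difference of 37.9 points did not pass the test (exact sign-flip permutation, two-sided p = 0.0625, adjusted p = 0.312). With the VQ-D2 family averaged as 1 clone the difference was 27.3 points (exact permutation p = 0.25). The smallest p this design allows is 0.0312, and the 15-base J ends of the derived lines are too short to count here.

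**Figure D4:**
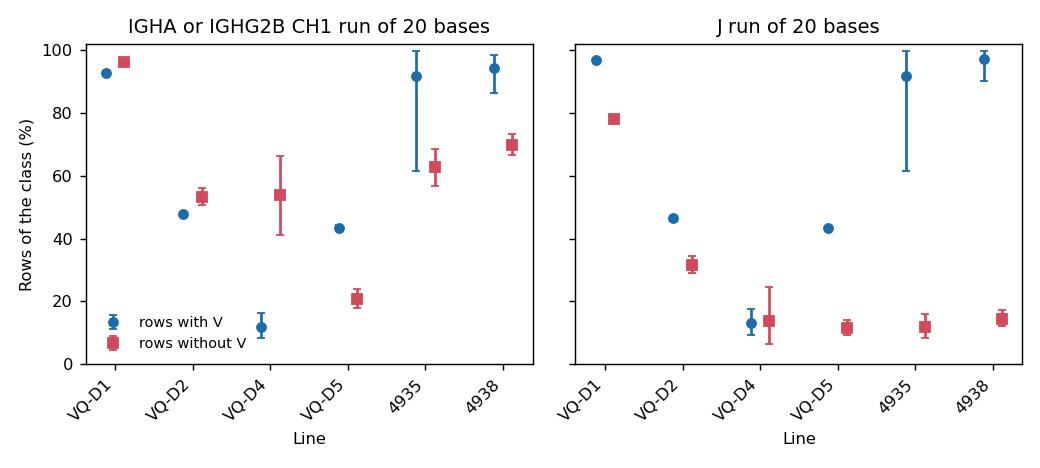
Share of rows (%) that hold a 20-base run of IGHA or IGHG2B CH1 (left) or of a J segment (right) by line, for rows with V (circles) and rows without V (squares), with 95% exact intervals. Constant sequence is higher with V in 3 lines and lower in 3, and J is lower without V in every line except VQ-D4.

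Rows without V of the 2 derived lines were compared with those of the 4 primary lines. Constant sequence was in 66.3% ± 5.04 (SD, n = 2) against 56.1% ± 31 (SD, n = 4), and the exact permutation test over 15 splits gave two-sided p = 0.6 (adjusted p = 0.688). J sequence was in 13.1% ± 1.95 against 33.8% ± 30.9 (exact permutation p = 0.667, adjusted p = 0.688). Neither difference was larger than the spread of the primary lines, and 15 splits allow no p below 0.0667.

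Rows without V were shorter than rows with V in 4 lines and longer in VQ-D4 and VQ-D5. The median with V and without V was 444 and 170 bases for VQ-D1, 376 and 197 for VQ-D2, 372 and 425 for VQ-D4, 442 and 541.5 for VQ-D5, 483 and 271.5 for 4935 and 483 and 184 for 4938. In VQ-D5 the 418 rows with the primer part alone, most of them mt-Atp6, had a median of 612 bases. Within rows without V, the line medians averaged 228 ± 61.9 bases in derived lines and 333 ± 180 in primary lines, a difference of -106 bases (exact permutation, two-sided p = 0.533, adjusted p = 0.688).

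**Figure D5:**
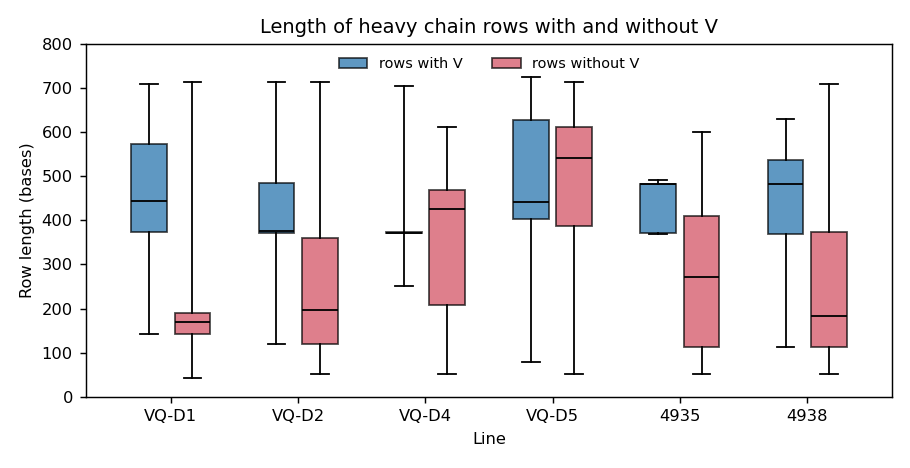
Length of rows (bases, vertical axis) with V and without V for the 6 lines; boxes span the quartiles with the median as a line, and whiskers reach the shortest and longest row. Rows without V are shorter in VQ-D1, VQ-D2, 4935 and 4938 and longer in VQ-D4 and VQ-D5.

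Many rows of both classes held an inverted repeat, a run of 20 bases whose reverse complement is in the same row. VQ-D1 had it in 67.5% of rows with V and 50.4% of rows without V, VQ-D2 in 13.6% and 59.8%, VQ-D4 in 59.2% and 46.2%, and VQ-D5 in 65.5% and 82.6%. The shares were 91.7% and 43.3% in 4935 and 93.1% and 46% in 4938. The repeat was therefore not a mark of rows without V, and only in VQ-D2 and VQ-D5 was it the more common there.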

How the data were processed

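The 6 heavy chain libraries were made from total RNA by a published full-length immunoglobulin protocol, per the labels' protocols, and the genome build was mm10, per the submitters' processing notes. The deposited clone tables give a count and a fraction per clonotype, per the file headers. The deposited aligned tables give 1 sequence a row with its V alignment, an E-value and a V score, per the file headers, in columns as IgBLAST writes them, and the sources used here do not give its version. The score was not used in a result. Members and lists were chosen with earlier results of these data known.

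Matches were exact runs of 20 bases on either strand, or of 12 bases for the primer part. J, CH1, Iμ and the other stretches were consensus sequences of the rows themselves. The structure of a row was assigned by what ended at the first 10 CH1 bases. Named were IGHA, IGHG2B, any other gene with at least 1% of the rows without V in a library, and the commonest sequence ends. Classes were paired by line, because both come from the same library. The assignment was tested on simulated rows built from the same stretches, without sequence errors or inverted repeats. That test cannot show how well mutated rows or rows with an inverted repeat were assigned. Scripts ran in Python 3.11.15 with scipy 1.17.1, matplotlib 3.10.9, numpy 2.4.6 and pandas 2.3.3. Alternatives were other V limits, other run lengths, distinct sequences, left-out lines, an unpaired test, the VQ-D2 family as 1 unit and, chosen after seeing the data, constant sequence without rows of the primer part alone. Weighting by reads and a reference constant sequence were not run, because the tables used here give no reads per row and no genome was used.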

Additional observations from a re-analysis of the deposited data

Results flagged for a closer look

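In the 4 primary lines, 1 line stood far from the other 3 in 5 of 26 quantities by Dixon's criterion at its 95% level. For quantities chosen without regard to their values, chance alone gives about 1 in 20. That rate does not hold for the sequences joined to the primer part (mt-Atp6, IGKC and opposite-strand IGHA CH1). These were listed because they were common in a line, so a line with a high share was built into their choice. The inverted repeat was in 13.6% of rows with V of VQ-D2, against 59.2% to 67.5% in the others. Another sequence before CH1 was in 8.44% of rows without V of VQ-D1, against 0% to 1.16%. The primer part joined to mt-Atp6 was in 41.3% of rows without V of VQ-D5, against 0% to 3.08%. The primer part joined to IGKC was in 33.8% of rows without V of VQ-D4, against 0% to 1.28%. The join that ends in opposite-strand IGHA CH1 was in 3.01% of rows without V of VQ-D2 and in 0% in the others.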

How the results depend on the processing

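Under other settings, 64 recomputed values kept their direction and call or moved less than their error, 11 moved further, 6 changed sign and 2 passed the threshold. The 64 include the share of the constant gene in each line's clone table, which was 100% and could not change. For the tested differences, a kept call means the same sign and again not past the threshold. The difference in constant sequence between rows with and without V changed sign with a V limit of 30 bases (-0.715), with a run of 15 bases (-16.6), which also counts the primer part, and with the VQ-D2 family as 1 clone (-1.68), and it ranged from -0.758 to 13.4 with 1 line left out. Leaving rows of the primer part alone uncounted, a setting chosen after seeing the data, gave 11.1 (exact permutation p = 0.25). The difference in J reached the smallest p the design allows with a V limit of 30 bases (29.9 points, exact permutation p = 0.0312) and a run of 30 (39 points, p = 0.0312). It was 27.3 points (exact permutation p = 0.25) with the VQ-D2 family as 1 clone and 24.6 (exact permutation p = 0.0625) with a run of 15, and ranged from 28.9 to 45.7 with 1 line left out. Without the block for line, which pairs both classes of a library, the differences were 4.19 (exact permutation p = 0.792) and 37.9 (p = 0.0649). Between derived and primary lines, J turned to 14 points with a run of 15, which counts the 15-base J ends. With 1 line left out, that J difference ranged from -28.1 to -5.91, constant sequence from -1.51 to 23.7 and length from -160 to -36.2 bases. The share of rows without V moved with a limit of 30 bases to 91.8% in 4935, 88.3% in 4938, 39.1% in VQ-D1, 3.99% in VQ-D2 and 2.78% in VQ-D5, to 56.4%, 5.09% and 3.34% in VQ-D1, VQ-D2 and VQ-D5 with 100 bases, and to 49.2%, 6.49% and 2.78% over distinct sequences. The cause of these shifts was not tested. The 12 rows with V of 4935 and 65 rows without V of VQ-D4 limit what depth can show there.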

Other observations

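The counts of the clone tables and the aligned rows with the same leading CDR3 differed within a library. Line 4935 had 411 clone counts and 10 such rows, 4938 had 373 and 66, and VQ-D4 had 1277 and 34. VQ-D2 had 2568 and 10683, VQ-D5 had 2181 and 2703, and VQ-D1 had 4602 and 5072. Rows without V made up 564 of these rows in VQ-D1 and 232 in VQ-D2.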
